A study of Rattus with 18 samples.

Results

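Slc2a1, which encodes the glucose carrier GLUT1, and 8 enzymes of glycolysis (Hk1, Hk2, Pfkl, Pfkp, Aldoa, Pgk1, Eno1 and Ldha) were followed in rat glomeruli over the days after an injection of antibody against Thy1. The 9 genes were chosen by name: a probe belonged to one of them if the array's own gene name, old or current, was that of the gene. They were found on 11 probes, with a pair of probes each for Hk1 and Eno1, and the brighter probe stood for its gene. Of the 9 genes, 8 were measured above background and were among the 23185 genes and transcripts tested. The probe of Hk2 stayed at background on all 18 arrays, so that gene is described by its signal alone.

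The samples were glomeruli from rats of strain SD (Sprague-Dawley) weighing 200 g. Those given the antibody had anti-Thy1 nephritis, a model in which antibody and complement destroy the mesangial cells, which then grow back. The control group, called day 0, was given saline and had 3 arrays. Days 1, 2, 3, 4 and 5 after the antibody had 3 arrays each, so that every group had n = 3 and there were 18 arrays in 6 groups. Per the labels, 30 rats received the antibody and 6 the saline, and glomeruli of several rats were used at each time point. Which animals, or how many, contributed to each array is not stated. A p-value here therefore reflects only the scatter among arrays within their groups, pooled over the 6 groups, which may be technical.

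Glycolysis turns glucose into pyruvate in the cytosol. Glucose enters through a carrier such as GLUT1, hexokinase traps it as glucose 6-phosphate, and phosphofructokinase commits it to breakdown, while aldolase, phosphoglycerate kinase and enolase act further down and lactate dehydrogenase turns pyruvate into lactate. In the kidney, proximal tubule cells make glucose and burn little of it, whereas glomerular cells, dividing cells and activated leukocytes use glycolysis more.

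Levels are log2 processed intensities relative to the 75th percentile of their array, so that 0 is the brightness of that percentile. Levels of different genes are not compared, because probes differ in brightness. Of 41012 probes, the share detected well above background ran from 55.3% to 69.6% per array, and no spot was saturated. Before scaling, the 75th percentile was 188.8, 180.7 and 229.2 on the control arrays and 251.9 or more on every antibody array, a difference that went with every comparison with day 0. Control replicate 4 stood apart from the other 2 controls for most of the genes described here. The controls shared a slide with 1 array of day 1 only, and the arrays of days 2 and 4 had a scan day of their own. For these the scan day and the treatment cannot be told apart against day 0.

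Tissue identity was read from marker lists. The 7 podocyte markers (Nphs1, Synpo and others) lay at a mean log2 level of 3.54 to 4.35 over the arrays. The 6 proximal tubule markers lay at a mean of 4.12 to 5.34, far above the level of the 75th percentile on every array, so their transcripts were present in the glomerular RNA. None of the 6 tubule markers passed the threshold on any day.

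Pfkl was lower than in the controls on every day and Pgk1 was higher on every day. Pfkp rose on days 2 to 5, Ldha on days 2 to 4, Eno1 on days 1 and 4, and Slc2a1 on day 5. Hk1 and Aldoa passed on no day. Over the 8 genes and 5 days, 15 of 40 changes were rises and 5 were falls, all 5 of them of Pfkl (limma, Benjamini-Hochberg over all genes, adjusted p under 0.05). In a whole glomerulus, fewer cells of a type and less RNA per cell cannot be told apart.

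On day 1, 2 of the 8 measured genes were called higher and 1 lower, where 40% of all genes were called, 19.2% higher and 20.7% lower. On day 2 the counts were 3 and 1, against 45.9% of all genes (20.8% higher and 25.1% lower). On day 3 they were 3 and 1, against 47.7% (21.7% and 26%). On day 4, 4 rose and 1 fell, against 52.3% (25.6% and 26.7%), and on day 5, 3 rose and 1 fell, against 44.3% (20.9% and 23.4%). With 8 genes these shares are coarse, and nothing particular to glycolysis is read from them. The arrays of 4, 3, 4, 4 and 4 genes lay wholly above the controls on days 1 to 5, where 27.4%, 28%, 26.2%, 28.8% and 24.9% of all genes did. Those of 1, 2, 2, 1 and 1 lay wholly below, where 23.8%, 29.8%, 30%, 30% and 27.7% did. The median change of the 8 genes was 0.46, 0.44, 0.37, 0.68 and 0.51 on the log2 scale on days 1 to 5, against 0.06, 0.05, -0.02, 0.05 and 0.06 for all genes. For 12 reference genes such as Ppia and Polr2a it was 0.47, 0.52, 0.66, 0.69 and 0.58, so a shift of this size was not particular to glycolysis. Without control replicate 4 the rises numbered 1, 1, 3, 4 and 1 on days 1 to 5, and the falls 1, 2, 1, 1 and 1.

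**Figure D1:**
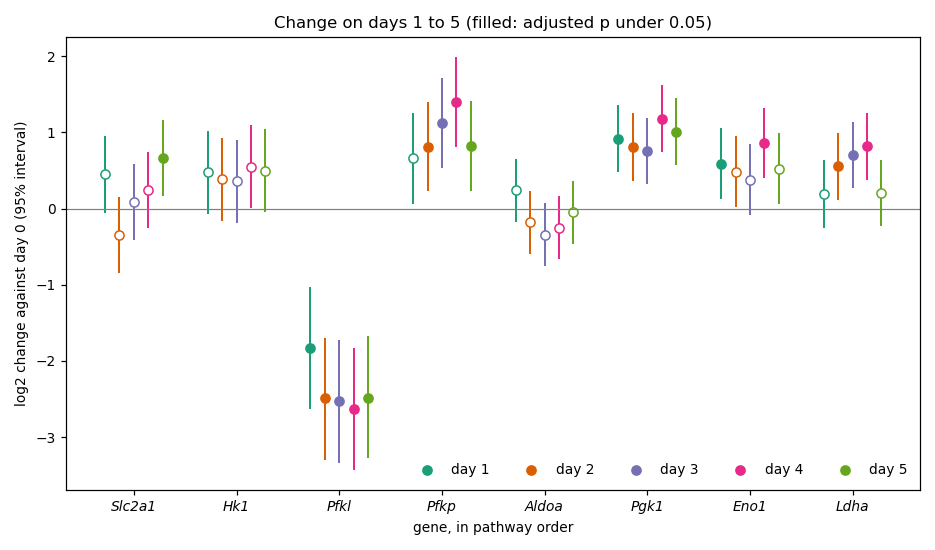
Change of each of the 8 measured genes against day 0 on a log2 scale (vertical axis), with genes in pathway order and days 1 to 5 side by side; points are the fit's estimates with n = 3 arrays per group, bars are 95% intervals, and filled points passed the threshold. Pfkl lies between -2.63 and -1.83, all days of Pgk1 lie between 0.75 and 1.18, and Aldoa and Hk1 have open points only.

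The probes that carry these results are shown because each change rests on 1 short sequence. They are 60 bases long and were read from the scanner files, 5′ to 3′, with positions on build rn4 as the files give them. For Pfkl and Slc2a1 the first 30 bases are given. Whether a probe lies in a coding part or in a UTR was not analysed here, because no annotation of that build was used.
Pfkl, first 30 bases (chr20:11032149-11032208, plus strand): cgcaccttgagcatagacaagggtttctga
Pfkp (chr17:74822635-74822694, plus strand): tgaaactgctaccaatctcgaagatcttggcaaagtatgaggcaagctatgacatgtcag
Pgk1 (chrX:94336783-94336842, plus strand): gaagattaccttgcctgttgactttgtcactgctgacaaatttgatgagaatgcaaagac
Ldha (chr1:97407674-97407733, plus strand): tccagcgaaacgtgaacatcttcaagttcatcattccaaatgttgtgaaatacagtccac
Aldoa (chr1:185972062-185972121, minus strand): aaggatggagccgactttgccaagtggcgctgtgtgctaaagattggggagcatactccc
Slc2a1, first 30 bases (chr5:139718779-139718838, plus strand): tctcctgtgcactgagggccagacaaacac
Hk2 (chr4:116926495-116928002, minus strand): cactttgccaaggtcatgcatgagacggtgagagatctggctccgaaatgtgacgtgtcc

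The Hk2 probe is placed over 1508 bases of the genome for its 60 bases. Of the probes of the 9 genes, only that of Ldha shared a run of 20 bases with another probe on the array. That other probe carries no gene name here, lay at -2.47 in the controls and was well above background on all 18 arrays. Pseudogene copies of several glycolysis enzymes are known in rodents, and signal from transcripts of such copies that match a probe cannot be told apart from that of the gene. The probes of Pgk1, Ldha and Slc2a1 are each printed in 10 spots per array. The median SD over these spots was 0.039 for Pgk1, 0.063 for Ldha and 0.063 for Slc2a1. The level on an array is a mean over these spots, so its own error is smaller than the SD of single spots. On day 1 the SD between arrays was 0.16 for Pgk1, 0.07 for Ldha and 0.09 for Slc2a1. Between the controls it was 0.37, 0.15 and 0.54.

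**Figure D2:**
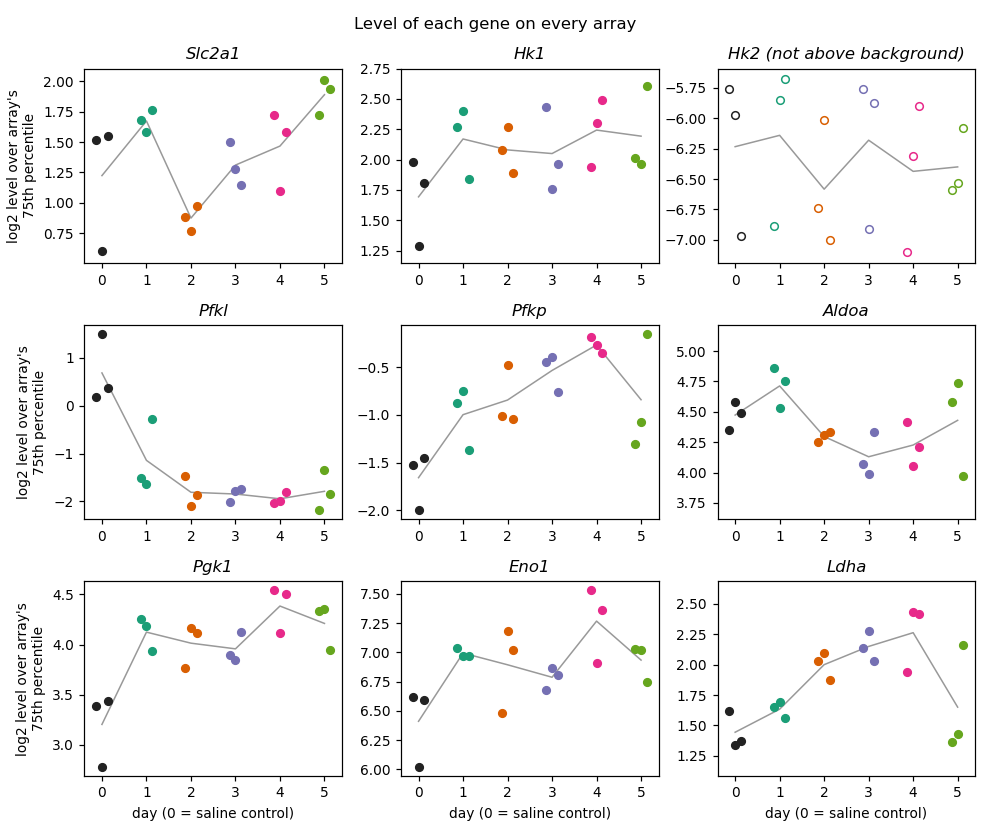
Log2 level of each of the 9 genes relative to the array's 75th percentile (vertical axes, a scale of its own in each panel) on every array of days 0 to 5; each point is 1 array and the grey line joins the means of 3. Open points are not well above background, as all 18 of Hk2 are; all 15 antibody arrays of Pfkl lie below the controls and all 15 of Pgk1 and of Pfkp above them.

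Slc2a1 brings glucose across the plasma membrane. Its levels on control replicates 2, 4 and 5 were 1.52, 0.6 and 1.55. On day 1 they were 1.68, 1.58 and 1.76, and on day 2 they were 0.88, 0.77 and 0.97. One control was thus far below the other 2, every array of day 1 lay above all controls, and every array of day 2 lay below the 2 higher controls. Day 3 had 1.5, 1.28 and 1.15, and day 4 had 1.72, 1.1 and 1.58. Day 5, the highest day, had 1.72, 2.01 and 1.94, above all controls. Only day 5 passed, with a rise of 0.67 ± 0.23 (SE, n = 3; 1.59-fold; adjusted p = 0.028). That call was lost without control replicate 4 (0.36, adjusted p = 0.14), day 5 replicate 4 (0.61, 0.077) or day 5 replicate 5 (0.64, 0.069), with scaling to 12 reference genes such as Ppia and Polr2a (0.26, 0.31), with quantile normalization (0.52, 0.083) and with the slide as a fixed block (0.91, 0.31). With scaling to the array's median, days 1, 4 and 5 passed (0.78, 0.65 and 1.09). The change on day 2 was -0.35 (adjusted p = 0.22), and without control replicate 4 it was -0.66 and passed (0.015). Scaling to the reference genes gave -0.71 for that day (0.0098) and scaling to the median 0.02. Without that array the changes on days 3 and 4 turned to -0.22 and -0.06. From the highest day to the lowest the order was 5, 1, 4, 3, 0 and 2, and no neighbours in it were further apart than the sum of their SDs.

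Hexokinase, which traps glucose in the cell, was represented by Hk1 and Hk2. Hk1 lay at 1.29 to 1.98 in the controls and at 1.76 to 2.61 on the antibody arrays, of which 9 of 15 were above every control. Its changes were between 0.36 and 0.55 on the 5 days with an SE of 0.25, and none passed. The largest was on day 4 (0.55, adjusted p = 0.077, 95% interval 0.02 to 1.08), and it passed without control replicate 2 (0.69, 0.047) or day 4 replicate 1 (0.7, 0.048). The call depended on the scaling. With the median Hk1 passed on all 5 days (0.81, 0.76, 0.75, 0.95 and 0.92, with adjusted p of 0.03, 0.035, 0.037, 0.01 and 0.014), with quantile normalization it passed on none, and with 12 reference genes it stood at -0.05 on day 3 and -0.02 on day 4. The dimmer probe of Hk1 gave changes of 0.39 to 0.69, of which none passed among all probes.

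Hk2, the hexokinase that is induced in many growing cells, had processed intensities between 1.83 and 6.66 on the 18 arrays. By the files' own flag its probe was well above background on 0 of 18 arrays, and no fold change is given. This describes 1 probe and does not show that the transcript is absent.

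Phosphofructokinase is the committing step, and its liver-type and platelet-type subunits went in opposite directions. Pfkl, the liver-type subunit, was at 0.18, 1.5 and 0.37 on control replicates 2, 4 and 5. Day 1 had -1.52, -1.64 and -0.27, and day 2 had -1.46, -2.1 and -1.87. The controls and day 1 were thus the days with the widest spread (SD 0.71 and 0.76), with control replicate 4 and day 1 replicate 5 each well above their group. Day 3 had -2.01, -1.79 and -1.74, day 4 had -2.04, -2 and -1.8, and day 5 had -2.19, -1.34 and -1.84. All 15 antibody arrays were below all 3 controls. Before scaling, the processed intensity fell too, from 214, 512 and 296 in the controls to between 59.8 and 210 on the antibody arrays.

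Pfkl fell by 1.83 ± 0.37 on day 1 (SE, n = 3; 3.55-fold; adjusted p = 0.0036). On days 2 to 5 the changes were -2.49, -2.53, -2.63 and -2.48, with the same SE and adjusted p of 6e-04, 0.00054, 0.00021 and 0.00079. Without control replicate 4 the changes passed on every day, at -1.42, -2.09, -2.12, -2.22 and -2.07 (adjusted p = 0.018, 0.0025, 0.002, 0.00088 and 0.0028). On each of the 5 days the fall was found under all 4 scalings of the arrays. With the slide as a fixed block the value was -2.21 on day 1 (adjusted p = 0.03), -3.15 on day 3 (0.035) and -3.2 on day 5, where it did not pass (0.092). In the order of the days, 0, 1, 5, 2, 3 and 4 from high to low, only days 0 and 1 were further apart than the sum of their SDs.

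Pfkp, the platelet-type subunit, was at -1.52, -2 and -1.45 in the controls. Day 1 had -0.87, -0.75 and -1.37, day 2 had -1.01, -0.48 and -1.04, and day 3 had -0.45, -0.39 and -0.76. Day 4 had -0.18, -0.27 and -0.35, and day 5 had -1.3, -1.07 and -0.15 on replicates 2, 4 and 5. Every antibody array lay above every control, but on day 5 replicate 5 was as high as the day 4 arrays while the other 2 were near the controls. The change was 0.66 ± 0.27 on day 1, which did not pass (SE, n = 3; adjusted p = 0.065) but did without day 1 replicate 5 (0.84, 0.033). It was 0.81 on day 2 (0.024), 1.13 on day 3 (0.0041), 1.4 on day 4, which is 2.63-fold (0.00095), and 0.82 on day 5 (0.025). The calls of days 2 and 5 were lost without control replicate 4 (0.64 and 0.65, both with adjusted p = 0.11), that of day 2 without day 2 replicate 3 (0.63, 0.11), and that of day 5 without day 5 replicate 5 (0.47, 0.13). Days 3 and 4 passed without control replicate 4, at 0.95 and 1.23. With the slide as a fixed block neither day 3 (1.43, 0.088) nor day 5 (1.35, 0.23) passed. Day 1 passed with the median (0.99, 0.017) and with quantile normalization (0.89, 0.029). After scaling to the reference genes day 1 stood at 0.24 (adjusted p = 0.45). The calls of days 2 (0.45, 0.14) and 5 (0.41, 0.18) were then lost, and those of days 3 (0.72, 0.022) and 4 (0.83, 0.009) held.

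The third phosphofructokinase gene, Pfkm of muscle, is not among the 9 genes. Its changes were 0.17, 0.05, -0.24, 0.02 and 0.22 on days 1 to 5 (SE 0.2), and none passed. The subunits assemble into mixed tetramers, and the protein was not measured here.

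Aldoa, which splits fructose 1,6-bisphosphate, was at 4.35, 4.58 and 4.49 in the controls. It was at 4.53 to 4.86 on day 1, 4.25 to 4.33 on day 2, 3.99 to 4.33 on day 3, 4.05 to 4.42 on day 4, and 3.97 to 4.74 on day 5. Every array of days 2 and 3 lay below all controls, and all other days overlapped the controls. The changes were 0.24, -0.18, -0.34, -0.25 and -0.05 ± 0.19 (SE, n = 3), with adjusted p of 0.31, 0.46, 0.15, 0.28 and 0.85. The direction depended on the scaling: after scaling to the median the change of day 1 was 0.57 and passed (0.023), and those of days 2 to 5 were 0.2, 0.05, 0.16 and 0.38. After scaling to the reference genes it stood at -0.75 on day 3 and -0.82 on day 4, where both passed, and quantile normalization gave -0.7 and -0.7, which passed too.

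Pgk1, which makes the first ATP of the pathway, was at 3.39, 2.78 and 3.44 on control replicates 2, 4 and 5. Day 1 had 4.25, 4.18 and 3.94, day 2 had 3.77, 4.16 and 4.11, and day 3 had 3.9, 3.85 and 4.12. Day 4 had 4.54, 4.11 and 4.5, and day 5 had 4.33, 4.35 and 3.95. No antibody array overlapped the controls, and control replicate 4 was again the farthest from them. Pgk1 rose by 0.92 ± 0.2 on day 1 (SE, n = 3; 1.89-fold; adjusted p = 0.0047). The rises of days 2 to 5 were 0.81 (0.0054), 0.75 (0.007), 1.18 (2.27-fold, 0.00044) and 1.01 (0.0019). Without control replicate 4 they were smaller on all 5 days (0.71, 0.6, 0.54, 0.97 and 0.8) and passed on each. After scaling to the reference genes the values were 0.5, 0.45, 0.34, 0.61 and 0.6, of which days 2 (adjusted p = 0.053) and 3 (0.12) did not pass. With the slide as a fixed block the values were 1.05 on day 1 (0.038), 0.87 on day 3 (0.14) and 0.96 on day 5 (0.23). Only days 3 and 0, neighbours at the low end of the order, were further apart than the sum of their SDs.

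Eno1, an enolase that makes phosphoenolpyruvate, was at 6.62, 6.02 and 6.59 in the controls. Day 1 had 7.04, 6.97 and 6.97, day 2 had 6.48, 7.18 and 7.02, and day 3 had 6.68, 6.87 and 6.81. Day 4 had 7.53, 6.91 and 7.36, and day 5 had 7.03, 7.02 and 6.75. Of the 15 antibody arrays 14 lay above all controls, the exception being day 2 replicate 2. Eno1 rose by 0.59 ± 0.21 on day 1 (SE, n = 3; adjusted p = 0.039) and by 0.86 on day 4 (1.82-fold, 0.0039). The values of days 2, 3 and 5 were 0.48 (0.073), 0.38 (0.15) and 0.52 (0.055). Day 2 passed without its replicate 2 (0.69, 0.02) and day 5 without control replicate 2 (0.63, 0.042). The day 1 call was lost without control replicate 4 (0.39, 0.18) or without any 1 of the day 1 arrays (0.56 to 0.6, with adjusted p of 0.061 to 0.1). The dimmer Eno1 probe had smaller changes on every day (0.52, 0.3, 0.15, 0.56 and 0.29), and none of them passed among all probes. Scaling to the reference genes left 0.17 on day 1 and 0.29 on day 4, neither past the threshold, and -0.03 on day 3. With the median Eno1 passed on all 5 days (0.92, 0.86, 0.77, 1.27 and 0.95), while quantile normalization and the authors' table lost the day 4 call (0.34 in both, with adjusted p of 0.12 and 0.2).

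Ldha makes lactate from pyruvate and regenerates NAD for the pathway. Its controls were at 1.62, 1.34 and 1.37. Day 1 had 1.65, 1.69 and 1.56, day 2 had 2.03, 2.1 and 1.87, and day 3 had 2.14, 2.28 and 2.03. Day 4 had 1.94, 2.43 and 2.42 on replicates 1, 2 and 3, and day 5 had 1.36, 1.43 and 2.16 on replicates 2, 4 and 5. Every array of days 2, 3 and 4 was above all controls, while on day 5 only replicate 5 was. Ldha rose by 0.56 ± 0.2 on day 2 (SE, n = 3; adjusted p = 0.034), 0.71 on day 3 (0.0098) and 0.82 on day 4 (1.76-fold, 0.0038). The values of days 1 and 5 were 0.19 (0.46) and 0.21 (0.41), and that of day 5 was -0.05 without replicate 5. The day 2 call was lost without control replicate 4 (0.51, 0.097), control replicate 5 (0.52, 0.083), day 2 replicate 2 (0.54, 0.074) or day 2 replicate 3 (0.51, 0.1). After scaling to the reference genes none of the 3 calls held, with values of 0.2, 0.3 and 0.25, and days 1 and 5 stood at -0.23 and -0.2. With the median day 5 passed too (0.63, 0.027), and with quantile normalization the day 2 call was lost (0.4, 0.11).

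From the highest day to the lowest, Pfkp and Ldha had the order 4, 3, 2, 5, 1 and 0, and Hk1 and Pgk1 the order 4, 5, 1, 2, 3 and 0. Eno1 had 4, 1, 5, 2, 3 and 0, and Aldoa 1, 0, 5, 2, 4 and 3. Day 4 was thus the highest day of 5 of the 8 genes. Apart from the neighbours named for Pfkl and Pgk1, only days 1 and 0 of Pfkp were further apart than the sum of their SDs.

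Among the antibody days the 8 genes were compared in 8 contrasts of 2 days and in a moderated F-test over days 1 to 5. None of the 64 contrasts passed by limma, where between 1 and 693 genes were called over all genes (0.00431% on day 3 against day 1, 2.99% on day 4 against day 3), and 10 had an unadjusted p under 0.05. None passed the F-test either, where 4.19% of all genes did, and 2 had an unadjusted p under 0.05. Slc2a1 had an adjusted p of 0.078 and Ldha of 0.14 in the F-test. The percentages for the other contrasts were 0.388% for day 2 against day 1, 0.323% for day 3 against day 2, 2.77% for day 5 against day 4, 0.00863% for day 5 against day 3, 0.121% for day 5 against day 1 and 0.0992% for day 4 against day 2.

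The largest of these differences was that of Slc2a1, which was lower on day 2 than on day 1 by 0.8 ± 0.23 (95% interval -1.29 to -0.31; adjusted p = 0.13). Without control replicate 4, which is not part of this contrast but widens the estimate of the gene's spread, the difference passed (adjusted p = 0.032), as did the F-test (0.014). A fit of the day 1 and day 2 arrays alone gave 0.046. Over 30 alternatives its adjusted p lay between 0.032 and 0.49. Ldha was lower on day 5 than on day 4 by 0.61 (adjusted p = 0.13, 0.021 to 0.41 over 30 alternatives). Without day 5 replicate 5 that difference was -0.87 (0.021), that of day 5 against day 3 was -0.76 (0.03), and the F-test passed (0.023).

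The arrays of days 4 and 5 differed among themselves in more than these genes. The mean of 8 cell cycle genes (Mki67, Top2a, Cdk1 and others) lay between -1.57 and -1.3 on the control arrays, -0.35 to -0.18 on day 1, 0.77 to 1.63 on day 2 and 0.92 to 1.84 on day 3. Day 4 had -1.25 on replicate 1 and 1.01 and 1.06 on replicates 2 and 3. Day 5 had -1.55 and -0.52 on replicates 2 and 4 and 1.33 on replicate 5. Of the 8 cell cycle genes 3, 8, 8, 6 and 2 rose on days 1 to 5. The array of day 4 with the low mean had the lowest Ldha of its day (1.94), a level still above all controls. The array of day 5 with the high mean had the highest Ldha (2.16), Pfkp (-0.15) and Hk1 (2.61) of its day. It also had the lowest Aldoa (3.97) and Pgk1 (3.95) of that day. These arrays stood apart in other lists as well. The macrophage mean was 2.65 on day 5 replicate 5, against 0.95 and 0.64. It was 0.28 on day 4 replicate 1, against 2.25 and 2.03. The proximal tubule mean was 4.12 on day 5 replicate 5, against 5.26 and 4.92, and 5.34 on day 4 replicate 1, against 4.53 and 4.95. The mesangial mean was 0.6 on day 5 replicate 5, against -0.37 and -0.54, and -0.78 on day 4 replicate 1, against 0.59 and 0.08. Which of these goes with the levels of the 8 genes was not tested. Pfkp did not follow on day 4, where replicate 1 was its highest array (-0.18).

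**Figure D3:**
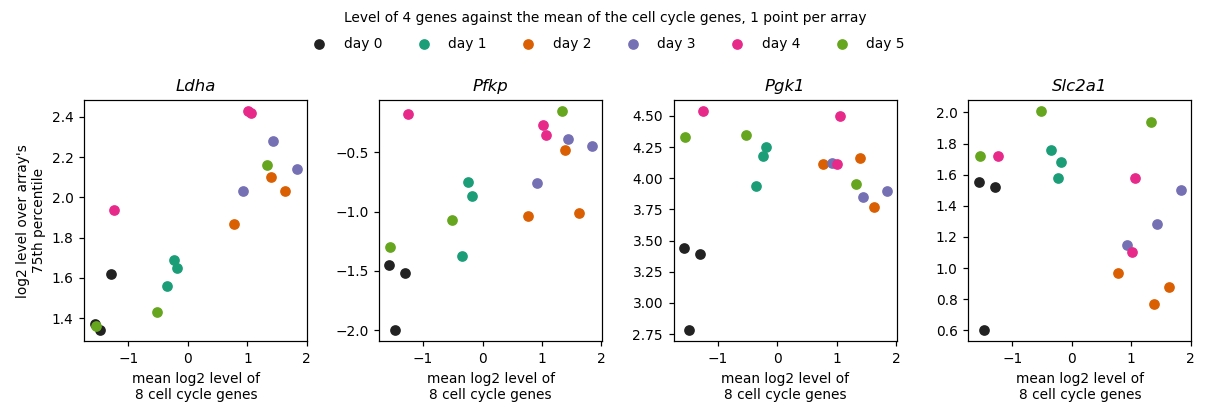
Log2 level of Ldha, Pfkp, Pgk1 and Slc2a1 (vertical axes, relative to the array's 75th percentile) against the mean log2 level of 8 cell cycle genes (horizontal axes), with 1 point per array coloured by day. Ldha is between 1.87 and 2.43 on the arrays with a cell cycle mean of 0.77 or more. Day 4 replicate 1, with a mean of -1.25, lies in the same range of Ldha (1.94). The lowest Slc2a1 values of the antibody arrays, on day 2, lie where the cell cycle mean is high. A high mean did not always go with low Slc2a1. Day 5 replicate 5, with a mean of 1.33, has Slc2a1 at 1.94, and day 3 replicate 2, with the highest mean (1.84), at 1.5.

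The macrophage markers moved over the same days. Of 8 markers (Gpnmb, C1qb, Tyrobp and others) 6, 6, 7, 3 and 2 rose on days 1 to 5 and none fell, and their mean lay between 0.02 and 0.92 in the controls, 2.68 to 3.14 on day 1, 2.25 to 3.03 on day 2, 3.12 to 3.52 on day 3, 0.28 to 2.25 on day 4 and 0.64 to 2.65 on day 5. Gpnmb, a glycoprotein of macrophages, rose by 6.1 on day 1, and C1qb, a chain of complement C1q, by 3.93 on day 3. The highest of day 5 was replicate 5. Of 6 mesangial markers 5, 2, 1, 1 and 1 fell and 1 rose on day 4, and their mean lay between -0.4 and 0.13 in the controls and between -2.55 and -1.61 on day 1. The integrin Itga8 fell by 3.66 and Thy1 by 3.25 on day 1. Of 7 endothelial markers 4, 3, 3, 5 and 4 fell and 1 rose on day 3, with means of 1.65 to 2.34 in the controls and 0.42 to 1.01 on day 4; Ehd3 fell by 2.81 on day 4 and Pecam1 by 1.78 on day 5. Of 4 lymphocyte markers 1, 3, 3, 0 and 0 rose (Gzmb by 3.02 and Cd8a by 2.16 on day 3). Of 5 neutrophil markers only S100a9 and S100a8 were measured, and both rose on days 1 and 5 (2.59 and 2.3 on day 5). Csf3r, Mpo and Cxcr2 were on the array but were not well above background on all 3 arrays of any day. The part of these cell types in the changes of the glycolysis genes was not tested.

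Smaller lists behaved as follows. Of 7 podocyte markers 1, 1, 1, 2 and 2 fell and 2 rose on day 5, with Synpo falling by 2.08 on day 2 and Cdkn1c rising by 0.74 on day 5. Of 6 red cell and platelet markers 2 rose on each of days 1 to 3, and 1 fell on day 5, the platelet chemokine Pf4 rising by 3.7 on day 2 and the globin Hbb falling by 1.09 on day 5. Of 5 distal tubule markers 1, 1, 2, 2 and 1 fell, among them Calb1, which fell by 1.42 on day 4, and Slc12a3, which fell by 1.1 on day 3.

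Some pairs of the genes went together or in opposite directions across the arrays, and others did not. Over all 18 arrays, Pearson's r was 0.92 between Pgk1 and Eno1, 0.84 between Pfkp and Ldha, -0.81 between Aldoa and Ldha, and -0.85 between Pfkl and Pgk1. Over the 15 antibody arrays the values were 0.87, 0.8, -0.86 and -0.28, so that the last rested on the controls. Other pairs were near 0 over these 15 arrays, such as Pfkp and Pgk1 (0.1) and Hk1 and Pgk1 (0.06). These are descriptions; the points share the arrays, their scaling and the days, and no p is given.

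The genes with the most similar profile were sought among 10429 others with a current symbol. High values are the outcome of such a search, and no shared function is read from them. The 15 antibody arrays are among the 18, so their values are not a separate check. Pgk1 was closest to Vps29, a subunit of the retromer (r = 0.984 over 18 arrays, 0.941 over the 15 antibody arrays), to Vcp, an ATPase of protein extraction (0.978 and 0.91), and to Mrpl16, of the mitochondrial ribosome (0.977 and 0.919). Pfkl was closest to the kinase Mink1 (0.988 and 0.927), the calcium channel Orai3 (0.987 and 0.919) and Cox6a2, of cytochrome oxidase (0.987 and 0.935). Ldha was closest to Tyms, the thymidylate synthase of DNA replication (0.942 and 0.928), then to Gpx7 (0.938 and 0.915) and Emp1 (0.931 and 0.908). Pfkp had Zc3h14 (0.938 and 0.901), Arf4 (0.935 and 0.874) and Orc4 (0.928 and 0.846) as its neighbours.
Aldoa was closest to Ogdhl (0.932 and 0.929) and Ap5b1 (0.914 and 0.924). Slc2a1 was closest to Dnlz (0.924 and 0.928), Zcchc9 (0.895 and 0.88) and the heat shock factor Hsf1 (0.895 and 0.885), and Eno1 to Kgd4 (0.946 and 0.888), Hagh (0.945 and 0.898) and Crls1 (0.944 and 0.889). The values for Hk1 were the lowest, with Mrtfa (0.869 and 0.754), Mta2 (0.858 and 0.789) and Spryd3 (0.858 and 0.769).

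How many of the rises were called depended on the scaling between arrays. After scaling to the median, 6, 5, 5, 6 and 6 of the 8 genes rose on days 1 to 5, and after scaling to 12 reference genes 1, 0, 1, 2 and 1 did. The same choice moved the median change of all genes, from between -0.02 and 0.06 to between 0.37 and 0.49 with the median and to between -0.51 and -0.32 with the reference genes. The share of rises among all genes called was 70% to 75.8% with the median and 12.8% to 20.1% with the reference genes, and 53.1% to 55.9% with quantile normalization. The reference genes themselves were not steady against the 75th percentile: 7, 8, 8, 10 and 9 of 12 were called higher on days 1 to 5, Ppia by 1.54 on day 4, while Polr2a fell by 2.14 on day 3. The fall of Pfkl was called on all 5 days with each of the 4 scalings, the rise of Pgk1 on days 1, 4 and 5, and that of Pfkp on days 3 and 4.

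**Figure D4:**
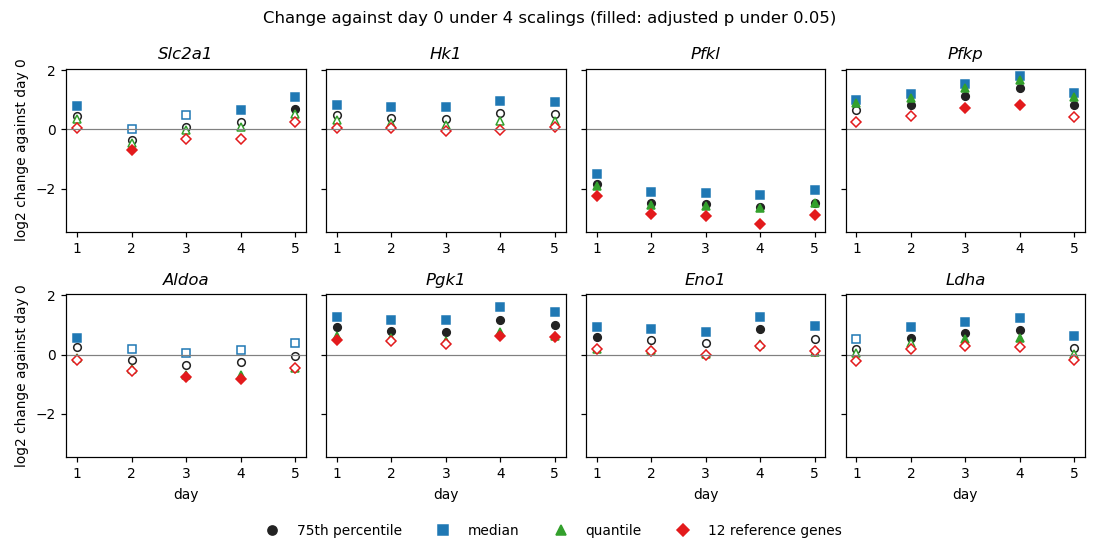
Log2 change of the 8 genes against day 0 (vertical axis) on days 1 to 5 (horizontal axis) under 4 scalings of the arrays: to the 75th percentile, to the median, by quantiles, and to the mean of 12 reference genes; filled symbols have an adjusted p under 0.05. Pfkl is at -1.5 or lower under every scaling, Pgk1 and Pfkp are above 0 under every scaling, and Aldoa changes sign between scalings.

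The rest of the pathway was read from a list of 20 other glycolysis enzymes, 17 of which were measured. On days 1 to 5, 6, 3, 5, 6 and 3 of them rose and 1 fell on each day, with median changes of 0.44, 0.26, 0.09, 0.19 and 0.26. Of all genes, 19.2% to 25.6% were called higher on these days and 20.7% to 26.7% lower. These shares stand beside the counts of every list in this report. Hk3, a hexokinase of leukocytes, rose by 1.22 on day 1 and 1.9 ± 0.41 on day 3 (3.74-fold, adjusted p = 0.0021), and stood at 0.4, -0.09 and -0.01 on days 2, 4 and 5. Pkm, the pyruvate kinase of most tissues outside the liver, rose by 0.6 on day 1 and 0.89 on day 3 (0.006), the same 2 days as Hk3. Eno2, the neuronal enolase, rose on every day but day 2, by 1.26 on day 1 (0.0038). Gapdhs, a sperm form of glyceraldehyde 3-phosphate dehydrogenase, was the 1 that fell. It was well above background on all 3 controls and on none of the day 2 arrays, where it was at least 10.6-fold lower. Gapdh itself, often used as a reference, had 0.41, 0.24, 0.36, 0.7 and 0.4 on days 1 to 5 and passed on day 4 (0.0027).

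**Figure D5:**
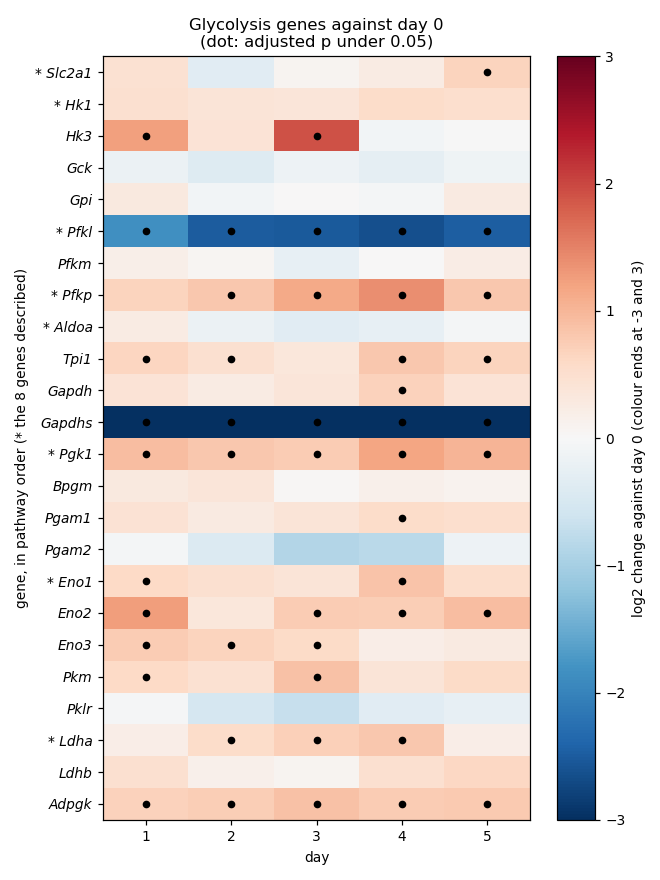
Log2 change against day 0 (colour, ending at -3 and 3) of 24 of the measured glycolysis genes, Slc2a1 included, in pathway order (rows) on days 1 to 5 (columns); a dot marks an adjusted p under 0.05 and a star the 8 genes described here. Pfkl and Gapdhs are the rows with dots on all 5 days in blue, and Pgk1 is a row with dots on all 5 days in red.

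Of 11 measured regulators of glycolytic flux 0, 1, 2, 2 and 1 rose and 4, 2, 1, 4 and 4 fell on days 1 to 5. Pdk4, a kinase that shuts off pyruvate dehydrogenase and so spares glucose, fell by 4.75 ± 0.89 on day 1 (26.9-fold, adjusted p = 0.0028) and stood at 0.12 on day 2 (0.92), and days 4 and 5, at -2.34 and -3.56, passed again. Pfkfb1 and Pfkfb4 make or remove fructose 2,6-bisphosphate, the main activator of phosphofructokinase. Pfkfb1 rose by 2.03 on day 3 (0.0018), and Pfkfb4 fell on days 1, 3, 4 and 5 (-1.23, -0.96, -1.18 and -2).

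Pentose phosphate enzymes, which draw glucose 6-phosphate into NADPH and ribose, had 5, 3, 4, 4 and 5 of 6 measured genes called higher on days 1 to 5 and none called lower, where 19.2% to 25.6% of all genes were called higher. Their median changes were 0.79, 0.34, 0.69, 0.82 and 0.65. Rises beyond the share of all genes were not particular to this list: of the 12 reference genes 7, 8, 8, 10 and 9 were called higher. The counts of this list under other scalings are not given. Rpe, the ribulose phosphate epimerase, rose by 1.65 ± 0.27 on day 4 (3.14-fold, adjusted p = 0.00037), Rpia, the isomerase, by 1.19 on day 5, and Taldo1, the transaldolase, by 1.02 on day 4. Of the 5 subunits of pyruvate dehydrogenase, the entry from glycolysis to the citric acid cycle, 2, 2, 1, 4 and 2 rose and none fell, with Pdhx at 1.24, Pdha1 at 1.12 and Dld at 1.05 on day 4. Pdha1 passed on days 2 and 4 only, the 2 days of the second scan.

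Of 9 other hexose and lactate carriers 1 rose on each day and 1, 2, 2, 2 and 1 fell. Slc5a1, a sodium-glucose cotransporter of the late proximal tubule, fell on all 5 days, by 2.91 ± 0.55 on day 1 (7.52-fold, adjusted p = 0.0029). The lactate exporter Slc16a3 rose by 1.54 on day 1 (0.0099) and 1.39 on day 3 (0.011), and the lactate carrier Slc16a1 by 1.14 on day 2 (0.04). Of 6 gluconeogenesis enzymes, Pck1, the cytosolic rate-limiting step, fell on day 1 (-1.95, adjusted p = 0.017) and day 5 (-2.52, 0.0037), and Pck2, its mitochondrial form, rose by 0.46 on day 2 (0.022) and also passed on day 4.

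Many glycolysis genes are known targets of the hypoxia-inducible factors, so 17 genes of that response were read beside them. On days 1 to 5, 3, 3, 3, 5 and 6 rose and 2, 3, 4, 5 and 4 fell. The falls of every day included Arnt and Epas1, which are subunits of the factors themselves, and on day 1 no other gene of the list fell. A part of hypoxia in the changes of the glycolysis genes was not tested. P4ha1, a collagen prolyl hydroxylase, rose on every day and most on day 4 (1.58 ± 0.18, 2.99-fold, adjusted p = 0.00015). Arnt, the shared partner of the factors, fell on every day (-2.69 on day 5, 0.0011), and Epas1, the factor subunit of endothelium, fell on every day, by 2.06 on day 4 (0.00034).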

How the data were processed

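The 18 single-colour arrays were scanned and quantified by the authors. Per the file headers, the intensity values are Agilent Feature Extraction 10.7.3.1 output (background-subtracted and detrended, no scaling between arrays). The authors' deposited value table holds log2 values, and how they were made is not given in the sources used here. Columns share quantiles among days 0, 2 and 4 (median 5.49) and among days 1, 3 and 5 (median 5.309), and the table served only as an alternative.

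From the processed intensity, log2 minus the array's 75th percentile was taken over non-control spots without outlier flags, and spots of a probe were averaged. Probes well above background on all 3 arrays of a day entered (27833 of 41012), the brightest per gene (23185 genes, 12280 with a current symbol). Of all probes, 21795 were named through the RefSeq table of rat genes and 19217 kept the file's name. One linear model over the 18 arrays was fitted in limma (version 3.58.1; lmFit, eBayes; R 4.3.3; package data.table, version 1.17.8), and p-values were adjusted contrast by contrast after Benjamini and Hochberg (threshold 0.05). Errors are standard errors. The fit was tested on simulated data. No arrays were identical. Figures were drawn with matplotlib 3.10.9 in Python 3.11.15. "At least" marks a gene at background on every array of a group: the brighter group's mean was then set against that group's detection floor, which on each array is the dimmest detected signal or, if larger, the signal of the probe. Named genes are all 9 genes on every day and, from other lists, the 3 with the largest change among those past the threshold on any day (5 for the other glycolysis enzymes); for marker lists mainly the first 2 of these; Gapdh, Pfkm and the other days of a named gene were added after their values were seen. Some genes that this rule names are not reported here. The 9 genes and all lists were chosen with earlier results of these data known. Alternatives were other scalings, background corrections, filters, probe choices, the slide and the replicate number as blocks, the authors' table and leaving out each array. The number of arrays limits the precision.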

Additional observations from a re-analysis of the deposited data

Results flagged for a closer look

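Only the 8 contrasts of antibody days in the report were searched, which leaves out other pairs of days. In 3 cases the arrays of both days lay on opposite sides of the control mean. For Slc2a1 every array of day 1 lay above that mean and every array of day 2 below it, and day 2 minus day 1 was -0.8 (limma, adjusted p = 0.13). For Aldoa every array of day 1 lay above the control mean and every array of days 2 and 3 below it. The differences from day 1 were -0.42 for day 2 (adjusted p = 0.33) and -0.58 for day 3 (0.21), and over all alternatives neither passed (lowest adjusted p 0.19 and 0.083). With 3 arrays per group, single arrays far from their group were not tested.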

How the results depend on the processing

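Of the 40 changes of the 8 genes, those of Pfkl, Pgk1 and Pfkp kept their direction under every alternative run. Each of the other 5 genes turned on at least 1 day. After scaling to the reference genes Hk1 stood at -0.05 on day 3 and -0.02 on day 4, Aldoa at -0.18 on day 1, Eno1 at -0.03 on day 3, Ldha at -0.23 on day 1 and -0.2 on day 5, and Slc2a1 at -0.32 on days 3 and 4. After scaling to the median Aldoa stood at 0.2, 0.05, 0.16 and 0.38 on days 2 to 5 and Slc2a1 at 0.02 on day 2. With quantile normalization Aldoa was at -0.12 on day 1 and Slc2a1 at -0.02 on day 3. Aldoa was at -0.2 on day 1 and Ldha at -0.12 on day 1 and -0.14 on day 5 with normexp, and its repaired form gave Aldoa 0.02 on day 5. Leaving out 1 array turned Aldoa on day 5 (-0.2 to 0.18; 0 without control replicate 4 and 0.18 without day 5 replicate 5), Ldha on day 5 (-0.05 to 0.35; the lowest without day 5 replicate 5) and Slc2a1 on day 3 (-0.22 to 0.25; -0.22 without control replicate 4 and -0.01 without day 3 replicate 2) and day 4 (-0.06 to 0.43; the lowest without control replicate 4).

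Genes called higher among the 8 on days 1 to 5 numbered 6, 5, 5, 6 and 6 with the median, and 1, 0, 1, 2 and 1 with the reference genes. The planned normexp left 0, 0, 0, 1 and 0. It could not be fitted well: its fitted background mean was -909.8 on day 1 replicate 1 and -798.4 on day 5 replicate 5. All genes called then numbered 29, 1485, 1544, 2604 and 56, and 11607, 14449, 14432, 15627 and 12105 in a repaired form chosen after seeing the data. Day 1 had 1 rise with no filter on dim probes, with the mean of all probes, with the second brightest probe and in a fit of the 2 groups alone (3302 genes called), and day 5 had 1 in such a fit (4816 genes). With the slide as a fixed block rises numbered 1, 0 and 0 on days 1, 3 and 5 (4105, 2914 and 103 genes called); days 2 and 4 cannot be set against day 0 in that fit. The falls were 0 on days 1 and 5 with normexp, 0 on day 5 with the slide block, and 2 on days 2, 3 and 4 with the reference genes, 2 on days 3 and 4 with quantile normalization and 2 on day 4 with the authors' table. The cause of these differences was not tested.

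Same-numbered replicates share only a number: their deviations had correlations of -0.456 to 0.367, and 0 of 18 arrays correlated best with its own number. With the replicate block 1 gene of the 8 rose on day 1, 1 on day 2, 3 on day 3, 3 on day 4 and 3 on day 5, and 7815 genes in all were called on day 4.

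Leaving out 1 array gave 4616 to 9642, 7137 to 10858, 8375 to 11150, 9318 to 12102 and 6515 to 10565 genes called on days 1 to 5. The lowest for day 1 were without control replicate 4 (4616), day 1 replicate 4 (4890) and day 1 replicate 1 (5390), and for day 5 without control replicate 4 (6515). Among the 8 genes, rises ranged from 1 to 2, 1 to 3, 3 to 3, 4 to 5 and 1 to 4 and falls from 1 to 2 on day 2 and 1 to 1 on the others. Day 1 had 1 rise without control replicate 4, day 1 replicate 1 or day 1 replicate 4, and day 5 had 1 without control replicate 4 or day 5 replicate 5. Between antibody days 0 to 1 gene passed the F-test, and 0 to 1 any contrast. Slc2a1 was the 1 without control replicate 4, and Ldha without day 5 replicate 5. With the reference genes 1 gene, Slc2a1, passed the F-test (adjusted p = 0.044), and in fits of 2 groups alone 1 passed a contrast.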
